A study of Mus musculus with 6 samples.

Results

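The Id genes Id1, Id2, Id3 and Id4 are 4 of the 46517 genes counted by RNA sequencing in primary cultures of mouse renal tubule epithelial cells (RTECs). They were chosen by name, as the whole family, and all 4 were expressed highly enough to be tested. RTECs were grown from kidneys of wild type FvB mice aged 4 to 6 weeks per the labels, while the study's methods give a slightly younger range. The cells were kept in RPMI with serum, EGF and insulin-transferrin-selenium, and put into serum-free medium for 24 h. Of the 6 cultures, 3 then received TGF-β1, a profibrotic cytokine, at 50 ng/ml for 24 h, and 3 served as controls (CTL). No gene was deleted or introduced in either group. The comparison asks how TGF-β1 changed transcripts of the Id family in these cells. All values come from bulk RNA, in which fewer cells of a type and less RNA per cell cannot be told apart.

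Id proteins are helix-loop-helix proteins that lack the basic region other family members use to hold DNA. They pair with the E proteins, which are broadly expressed basic helix-loop-helix (bHLH) activators, and keep them off their E-box sites. In this way they hold back differentiation programmes and cell cycle inhibitor genes. In many cell types the Id genes are direct targets of bone morphogenetic protein (BMP) signalling through Smad1 and Smad5, and in epithelial cells TGF-β1 is known to repress some of them through Smad3. In kidney, BMP7 is known for opposing TGF-β1 in tubule cells.

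Totals on genes ranged from 28313080 to 34183497 reads over the 6 libraries, and 3 reads corresponded to 0.0878 to 0.106 CPM when scaled by the library's total alone. All other CPM values carry TMM scaling as well. Cultures with the same replicate number deviated from their group means together over all genes, with correlations of 0.34, 0.68 and 0.57 for numbers 1, 2 and 3, against -0.62 to 0.22 between different numbers. The numbers were therefore taken as pairs, which neither the labels nor the methods state. The match was clearest for replicate 2, while CTL replicate 1 correlated at 0.34 with TGF-β1 replicate 1 and at 0.22 with TGF-β1 replicate 3. The Id genes and the counts of each list of pathway genes are given without and with the replicate number as a block. The replicate 2 cultures stood apart from the others in both groups. The Y-linked genes Ddx3y, Eif2s3y, Kdm5d and Uty summed to 151 CPM in CTL and 142 CPM in TGF-β1 replicate 2, against 0.061 to 0.172 CPM in the other 4 cultures, whereas the study's methods describe the mice as male. Xist was at 237 and 207 CPM in replicate 2 and at 516 to 634 CPM elsewhere. Some cell type markers differed in replicate 2 as well, in both directions, with values given below beside the Id genes.

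The 4 genes lie on different chromosomes of GRCm38. Id1 (ENSMUSG00000042745.9) is at chr2:152736251-152737410 on the plus strand with 1160 bases of exon, and Id2 (ENSMUSG00000020644.8) is at chr12:25093799-25097140 on the minus strand with 2438 bases of exon. Id3 (ENSMUSG00000007872.3) is at chr4:136143497-136145755 on the plus strand with 1791 bases of exon, and Id4 (ENSMUSG00000021379.1) is at chr13:48261228-48266026 on the plus strand with 3849 bases of exon. The start of Id4 overlaps 2 minus-strand genes, A330033J07Rik, which held 0 to 7 reads per library, and Gm49291, not analysed here, and the strand setting of the counting is not given in the sources used here.

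RefSeq promoter windows (GRCm38.p6) were at hand for 3 of the 4 genes, Id2, Id3 and Id4. They are shown because Smad proteins, ATF3 and bHLH proteins are known to act on promoters of this family. Which genes are shown was set by the windows at hand and not by the size of the response. Of the 250 bases before each RefSeq start, the stretches below leave out bases that lie in annotated exons, except for a stretch of 30 bases at Id3. The Id2 and Id3 windows lie inside the genes as annotated above, after the annotated start, and only the Id4 window lies before it. Of the 250 window bases, 161 at Id2, 250 at Id3 and 0 at Id4 lie in annotated exons. Capitals mark every match, on either strand, to the Smad3/Smad4 box CAGAC, the GC-rich Smad box GGCGCC, the ATF/CREB site core TGACG, the E-box CANNTG or the TATA box TATAAA.
Id2, chr12:25096254-25096342, minus strand: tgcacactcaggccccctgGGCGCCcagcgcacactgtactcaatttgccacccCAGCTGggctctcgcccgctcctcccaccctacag
Id3, chr4:136143643-136143672, plus strand: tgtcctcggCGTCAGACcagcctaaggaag
Id4, chr13:48260866-48261115, plus strand: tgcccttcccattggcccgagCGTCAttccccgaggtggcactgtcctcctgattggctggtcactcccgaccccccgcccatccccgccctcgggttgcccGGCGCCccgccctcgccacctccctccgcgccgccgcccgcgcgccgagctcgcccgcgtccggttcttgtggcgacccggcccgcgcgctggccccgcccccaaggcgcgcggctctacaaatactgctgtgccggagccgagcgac

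The GC-rich Smad box occurred 1 time in the Id2 window and 1 time in the Id4 window, and in 9.59% of the 32851 RefSeq windows of 250 bases. In the Id3 window the ATF/CREB core, read on the minus strand, overlapped a Smad3/Smad4 box, and that window held 2 Smad3/Smad4 boxes in all. The Id4 window also held 1 ATF/CREB core. Over all windows 17.8% held this core and 42.2% held a Smad3/Smad4 box. The Id2 window held 1 E-box, as 66.2% of windows held at least 1, and none of the 3 windows held TATAAA, found in 12.4%. These are matches of letters and not measured sites, and those at Id2 and Id3 lie within the annotated genes.

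Per kb of exon, Id3 and Id1 were the most abundant members in CTL cultures and Id4 the least. CTL levels in CPM per kb of exon were 47.8 ± 29.5 for Id3, 28.6 ± 2.88 for Id1, 12.7 ± 3.93 for Id2 and 1.87 ± 1.02 for Id4 (SD, n = 3). The ranges of Id3, from 25.9 to 81.4, and of Id1, from 25.8 to 31.5, overlapped. Within a culture, the log2 ratio of Id1 to Id3 was between -1.37 and -0.0073 in CTL. Id3 was thus the higher in all 3 CTL cultures, though nearly equal to Id1 at the closest. Id2, at 9.28 to 17.0, lay below both in all 3 CTL cultures, and Id4, at 1.06 to 3.01, lay below Id2. The order of Id1 and Id2 in CTL rests on the length unit. Per kb of coding sequence Id2, at 48.7 to 89.2, overlapped Id1, at 59.3 to 72.5. After TGF-β1 the levels were 24.2 ± 1.19 for Id1, 22.7 ± 11.8 for Id3, 3.17 ± 0.617 for Id2 and 1.19 ± 0.458 for Id4. Id1 and Id3 again overlapped, and Id2, at 2.68 to 3.87, stayed above Id4, at 0.855 to 1.71, without overlap.

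**Figure D1:**
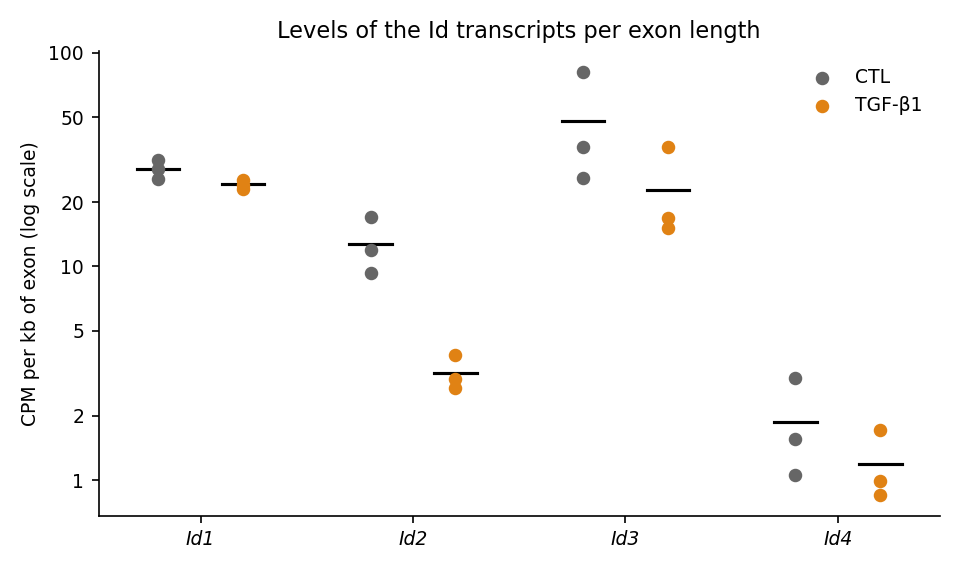
Level of each Id transcript in CPM per kb of exon (log axis) in the 3 CTL and 3 TGF-β1 cultures. Points are cultures and bars are group means. Id2 falls from a range of 9.28 to 17.0 to a range of 2.68 to 3.87, while the ranges of Id1 and Id3 overlap each other in both groups.

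Id2 showed the largest difference in the family and was the only member that passed the test without the block. Id2 was at 29.1, 41.5 and 22.6 CPM in CTL replicates 1, 2 and 3 and at 7.25, 6.54 and 9.43 CPM in the corresponding TGF-β1 cultures. The groups did not overlap, and CTL replicate 2, the highest control, was paired with the lowest treated culture. The mean was 4.01-fold lower with TGF-β1, and within pairs Id2 was lower by 75.1%, 84.2% and 58.3%. The log2 fold change was -2.00 (SE 0.26, edgeR adjusted p = 0.0104), and -1.97 (adjusted p = 0.0024) with the replicate block. Without both replicate 2 cultures it was -1.63 (adjusted p = 0.0059). The call was lost without CTL replicate 1 (log2 fold change -2.05, edgeR adjusted p = 0.053) and without TGF-β1 replicate 1 (-1.95, adjusted p = 0.0576). It was also lost without both replicate 1 cultures (-2.00, adjusted p = 0.255), where edgeR called 0 genes in all and 1938 genes were at an unadjusted p under 0.05.

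Id3 was lower with TGF-β1 within every pair, but its level differed more between replicate numbers than between conditions. Id3 was at 64.9, 145.8 and 46.4 CPM in CTL and at 30.1, 65.0 and 27.0 CPM in TGF-β1 replicates 1, 2 and 3. TGF-β1 replicate 2 was as high as CTL replicate 1, so the groups overlapped. Within pairs Id3 was lower by 53.6%, 55.4% and 41.7%. The log2 fold change was -1.07 (SE 0.53, edgeR adjusted p = 0.248) without the block and -1.03 (SE 0.076, adjusted p = 6.8e-05) with it. Without both replicate 2 cultures Id3 also passed the test (log2 fold change -0.96, edgeR adjusted p = 0.0259). Leaving out only CTL replicate 2 gave -0.45 and leaving out only TGF-β1 replicate 2 gave -1.59, neither past the threshold.

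Id4 followed the pattern of Id3 at a lower level. Id4 held 196, 382 and 118 reads in CTL and 119, 201 and 111 reads in TGF-β1 replicates 1, 2 and 3, or 5.98, 11.6 and 4.06 CPM against 3.82, 6.58 and 3.29 CPM. The highest treated culture, replicate 2, lay above CTL replicates 1 and 3. Within pairs Id4 was lower by 36.1%, 43.3% and 19.0%. The log2 fold change was -0.67 (SE 0.45, edgeR adjusted p = 0.393) without the block and -0.62 (SE 0.12, adjusted p = 0.0063) with it. Without both replicate 2 cultures it was -0.50 and did not pass the test (edgeR adjusted p = 0.198). Leaving out only CTL replicate 2 gave -0.14, and leaving out only TGF-β1 replicate 2 gave -1.03.

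Id1, the member most widely used as a readout of BMP signalling, differed least. Id1 was at 33.1, 36.6 and 29.9 CPM in CTL and at 26.8, 27.9 and 29.6 CPM in TGF-β1 replicates 1, 2 and 3. The groups did not overlap, but the lowest control and the highest treated culture, both replicate 3, differed by 1.1%. The other pairs were lower by 18.9% and 23.6%. The log2 fold change was -0.24 (SE 0.087, edgeR adjusted p = 0.134) without the block and -0.24 (SE 0.077, adjusted p = 0.0461) with it. Without both replicate 2 cultures it was -0.16 (edgeR adjusted p = 0.276).

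**Figure D2:**
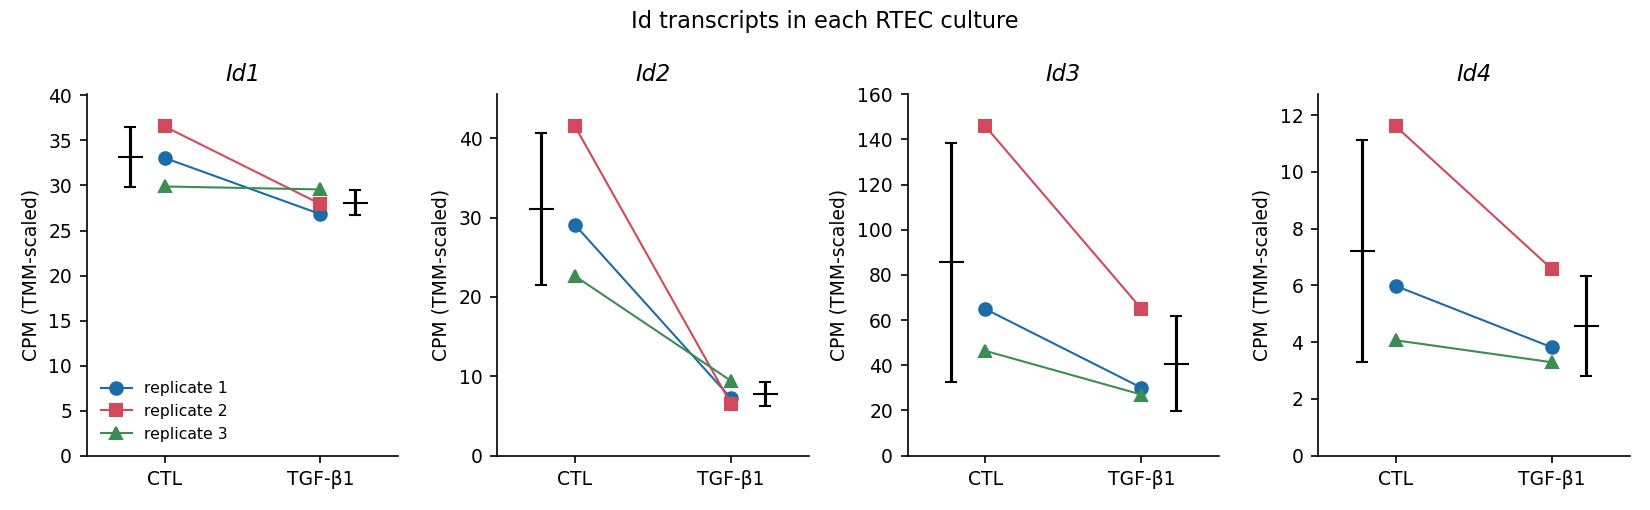
CPM of Id1, Id2, Id3 and Id4 (TMM-scaled, each axis starting at 0) in CTL and TGF-β1 cultures. Lines join cultures with the same replicate number, and the bars beside them are the mean ± SD of 3 cultures. Every line slopes down, steeply for Id2 and by 1.1% for Id1 in replicate 3, and replicate 2 lies highest for Id3 and Id4 in both groups.

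Over the family, 1 of 4 members was called lower and 0 were called higher without the block, beside 6.69% of all 15862 genes tested called lower and 5.00% called higher. With the replicate block 4 of 4 were called lower, beside 19.1% lower and 15.1% higher over all genes. Without both replicate 2 cultures 2 of 4, Id2 and Id3, were called lower, beside 8.09% lower and 6.79% higher of the genes tested there. All 4 were lower in all 3 pairs, as were 32.6% of genes tested, and for 2 of 4 the groups did not overlap, as for 18.0% of genes in this direction. The median log2 fold change of the 4 members was -0.87, against -0.0028 over all genes tested.

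The makeup of the Id pool was compared between groups through each member's share and through ratios within a culture. Id2 made up 15.2%, 12.8% and 15.0% of the summed Id level per kb of exon in CTL replicates 1, 2 and 3, and 6.78%, 4.14% and 8.54% after TGF-β1. The share of Id1 was 36.4%, 23.7% and 41.6% in CTL and 52.7%, 37.2% and 56.3% after TGF-β1. Id2 shares did not overlap between groups, and Id1 shares did. The size of a share depends on the length unit. Within a culture, the log2 ratio of Id1 to Id2 per kb was 1.21 ± 0.295 in CTL and 2.95 ± 0.223 with TGF-β1 (SD, n = 3), which was higher by 1.74 (exact permutation test, two-sided p = 0.1, adjusted p = 0.2). The log2 ratio of Id2 to Id4 was 2.86 ± 0.327 in CTL and 1.47 ± 0.769 with TGF-β1, and that of Id3 to Id4 was 4.64 ± 0.107 and 4.21 ± 0.174. Both had an exact permutation p of 0.1 (adjusted p = 0.2), the smallest that 3 against 3 cultures allow in this unpaired test, so none of the 6 ratios could pass 0.05 in it and a difference in response between members was not shown. In all 6 ratios the 3 pairs moved the same way. For Id1 to Id3 the shift was 0.806, 0.776 and 0.763 in pairs 1, 2 and 3, a narrow range beside the SDs of 0.709 and 0.708 within groups (exact permutation p = 0.3, adjusted p = 0.36).

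In CTL all 4 members were highest in replicate 2 and lowest in replicate 3, and with TGF-β1 Id3 and Id4 were again highest in replicate 2, while Id1 and Id2 were highest in replicate 3. In CTL, replicate 2 lay above the mean of replicates 1 and 3 by 1.39 for Id3 and 1.21 for Id4 on the log2 scale, and by 0.22 for Id1 and 0.68 for Id2. With TGF-β1 the same difference was 1.19 for Id3, 0.89 for Id4, -0.013 for Id1 and -0.35 for Id2. The fibroblast and pericyte receptor gene Pdgfrb was higher in replicate 2 by 1.42 and 1.24 in CTL and TGF-β1, the podocyte and mesothelial factor Wt1 by 1.23 and 1.17, and the collagen gene Col1a1 by 1.48 and 1.40. The adhesion genes Cdh1 and Epcam and the keratin genes Krt8 and Krt18 were lower in replicate 2, by -1.80, -1.87, -1.89 and -1.69 in CTL. Other markers of the same lists did not follow: the fibroblast genes Thy1 (-1.85 and -2.09) and Pdgfra (-0.45 and -1.45) were lower in replicate 2, Dcn (1.52 and 2.38) was higher, and the podocyte gene Podxl (0.075 and -0.46) and the tubule genes Pax8 (0.090 and -0.15), Pax2 (0.094 and -0.13) and Cdh16 (-0.091 and -0.57) lay nearer 0. Within pairs Pdgfrb was lower with TGF-β1 by 49.6%, 49.5% and 32.9%, close to the values of Id3 (log2 fold change -0.91, edgeR adjusted p = 0.340, and -0.86, adjusted p = 0.00043, with the block). Wt1 was lower by 31.4%, 25.8% and 9.74% (edgeR adjusted p = 0.647, and 0.0060 with the block), and Col1a1 was higher in all 3 pairs. The part of these differences in the levels of Id3 and Id4 and in their response was not tested.

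**Figure D3:**
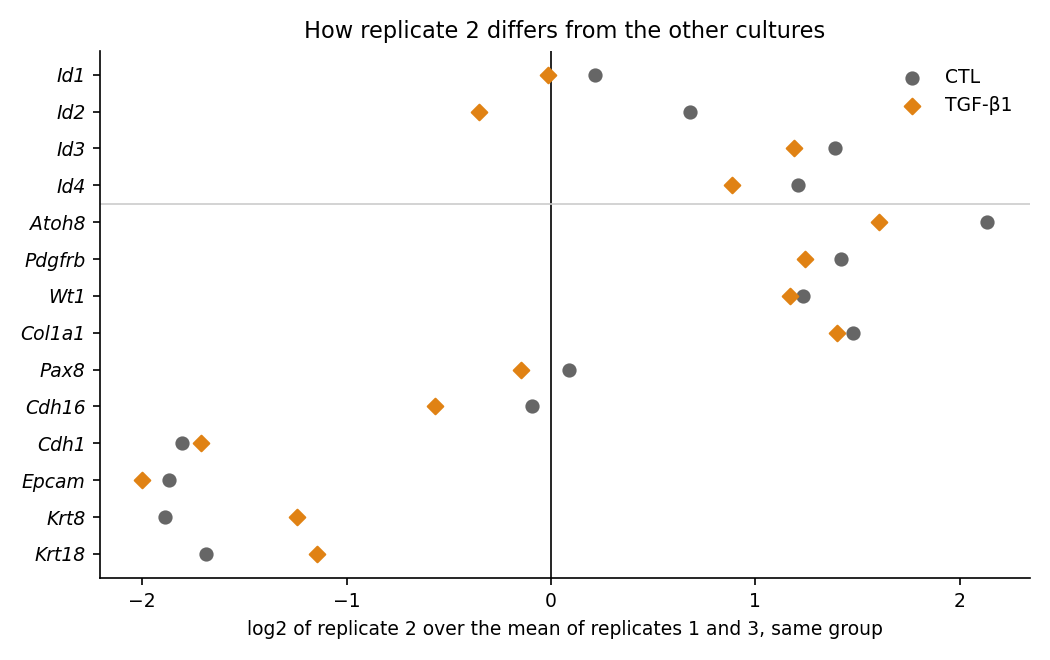
Log2 ratio of replicate 2 to the mean of replicates 1 and 3 of the same group, for the Id genes (above the line) and for selected cell type markers and Atoh8. Id3 and Id4 lie to the right in both groups with Atoh8, Pdgfrb, Wt1 and Col1a1, at 0.89 or above, while Cdh1, Epcam, Krt8 and Krt18 lie to the left and Pax8 and Cdh16 lie nearer 0. Among markers not drawn, Thy1 and Pdgfra were lower in replicate 2, Podxl lay nearer 0 and Dcn was higher.

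Over all 6 cultures the Pearson correlation of log2 CPM was 0.98 between Id3 and Id4 and 0.92 between Id1 and Id2, and lowest, at 0.58, between Id2 and Id4. The cultures share treatment and replicate number, so these correlations are descriptions. Among 10910 tested genes with a mean of at least 5 CPM, those most like Id2 were Fam69b (0.998), Ech1 (0.997), an enzyme of fatty acid oxidation, and Tbcel (0.996). Most like Id1 were Mindy2 (0.993), Decr1 (0.988), which also acts in fatty acid oxidation, and Arsa (0.987), the lysosomal arylsulfatase A. Most like Id3 were the bHLH factor gene Atoh8 (0.998), Pag1 (0.998) and the semaphorin gene Sema3d (0.998), and most like Id4 were the heparan sulfate enzyme gene Hs6st2 (0.998), Armcx1 (0.998) and Castor1 (0.997). Atoh8 was at 8.05, 28.8 and 5.06 CPM in CTL and at 2.85, 8.31 and 2.61 CPM in TGF-β1 replicates 1, 2 and 3, so that its highest values were in replicate 2, as for Id3. Its log2 fold change was -1.61 (edgeR adjusted p = 0.243) without the block and -1.50 (adjusted p = 0.00029) with it.

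Of the 3 genes for E proteins, which the Id proteins bind, 1 rose with TGF-β1. Tcf12, which encodes the E protein HEB, rose from 198 ± 1.83 to 228 ± 7.13 CPM (SD, n = 3; log2 fold change 0.20, SE 0.045, edgeR adjusted p = 0.0382). Tcf3, which encodes E12 and E47, was at 131 ± 3.72 CPM in CTL and 150.3 ± 5.42 CPM with TGF-β1 (log2 fold change 0.19, edgeR adjusted p = 0.0505, and 0.0094 with the block). Tcf4, which encodes E2-2, was at 97.1, 117.8 and 86.8 CPM in CTL and at 134.5, 172.6 and 127.8 CPM with TGF-β1. Its groups did not overlap, and replicate 2 was highest in each. The log2 fold change of Tcf4 was 0.53 (SE 0.16, edgeR adjusted p = 0.0857) without the block and 0.53 (SE 0.043, adjusted p = 8.4e-05) with it. With the block 3 of 3 E protein genes were called higher, beside the 15.1% of all genes called higher and 19.1% called lower with the block, the shares against which the block counts of the lists that follow stand. List counts without the block stand against 5.00% of all genes tested called higher and 6.69% called lower. All 3 were higher in all 3 pairs, as were 30.4% of genes tested, and for all 3 the groups did not overlap, as for 17.2% of genes in this direction.

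**Figure D4:**
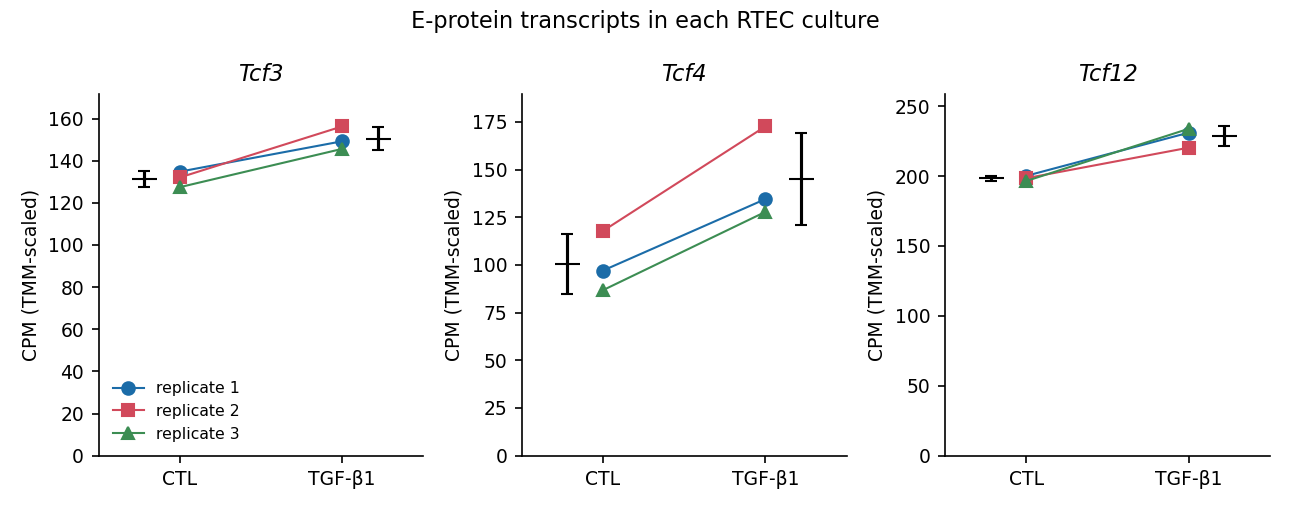
CPM of the E protein genes Tcf3, Tcf4 and Tcf12 (TMM-scaled, axes starting at 0), drawn as for the Id genes with lines joining same-numbered cultures and bars for the mean ± SD of 3 cultures. Every line slopes up, and Tcf4 lies at 86.8 to 117.8 CPM in CTL and 127.8 to 172.6 CPM with TGF-β1.

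Most tissue-restricted bHLH factors, the usual partners of E proteins, were near or below detection: 7 of 38 were tested. Scx, the scleraxis gene of tendon and matrix-producing cells, rose (log2 fold change 0.78, edgeR adjusted p = 0.0122), from 54.5 to 70.6 CPM in CTL to 97.2 to 115.9 CPM with TGF-β1. Msc, the musculin gene, rose from 1.53 ± 0.749 to 5.68 ± 1.93 CPM (log2 fold change 1.89, edgeR adjusted p = 0.0466), and Tcf24 fell from 12.5 ± 1.45 to 4.94 ± 1.38 CPM (log2 fold change -1.33, adjusted p = 0.0179). With the block 3 of 7 were called higher and 3 lower, the lower ones including Atoh8 and Twist1. The median log2 fold change of the 7 was -0.43.

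The Hes, Hey and Dec genes encode bHLH repressors, and several of them are Notch targets. Of 12, 7 were tested, and 2 rose and 1 fell. Bhlhe41, the gene for Dec2, rose from 26.1 ± 0.364 to 59.8 ± 2.30 CPM (log2 fold change 1.20, edgeR adjusted p = 0.00082), and Hes1 rose by less (log2 fold change 0.22, adjusted p = 0.0458). Hey2 fell from 2.70 ± 1.19 to 0.981 ± 0.184 CPM (log2 fold change -1.47, edgeR adjusted p = 0.0494). With the block 4 were called higher and 1 lower, and the median over the 7 without it was 0.22.

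On the BMP branch, which drives Id transcription in many cells, 6 of 10 ligand genes were tested, and 3 fell and 0 rose. Bmp2 fell from 5.33 ± 0.553 to 1.68 ± 0.182 CPM (log2 fold change -1.66, SE 0.15, edgeR adjusted p = 0.0038). Bmp3, which encodes a BMP antagonistic to other ligands, was at 6.25, 12.1 and 4.37 CPM in CTL and at 0.545, 0.654 and 0.978 CPM with TGF-β1 (log2 fold change -3.37, edgeR adjusted p = 0.0122). Bmp6, which in liver controls hepcidin through Smad1 and Smad5, fell from 70.5 ± 5.42 to 36.5 ± 9.26 CPM (log2 fold change -0.95, edgeR adjusted p = 0.0302). For all 3, which were named because they were called, the groups did not overlap, as for 18.0% of genes tested in this direction. The block added Bmp4 (log2 fold change -0.66, edgeR adjusted p = 0.00081) and Bmp7 (-0.28, adjusted p = 0.0041) as lower and Gdf6 (0.64, adjusted p = 0.0115) as higher, which without it had adjusted p-values of 0.289, 0.301 and 0.538. The median of the 6 without the block was -0.83.

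Of the 14 receptor, co-receptor and Smad genes of this branch, all were tested, and 3 rose and 1 fell. The type I receptor gene Acvr1, for ALK2, rose from 85.0 ± 4.91 to 149.3 ± 1.38 CPM (log2 fold change 0.81, edgeR adjusted p = 0.0017), and the type II receptor gene Bmpr2 rose from 253 ± 7.19 to 342 ± 4.12 CPM (log2 fold change 0.44, adjusted p = 0.0060). Smad5 rose (log2 fold change 0.22, edgeR adjusted p = 0.0287) and the type II receptor gene Acvr2b fell (-0.63, adjusted p = 0.0382). With the block 4 of 14 were called higher and 4 lower, beside 15.1% and 19.1% of all genes. Smad9, named after its values were seen, was among the lower ones, at 1.34, 4.92 and 0.758 CPM in CTL and 0.385, 0.556 and 0.385 CPM with TGF-β1 (log2 fold change -2.4, edgeR adjusted p = 0.102, and 0.0035 with the block). The median over the 14 without the block was 0.052.

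Of 15 genes for BMP antagonists and binding proteins 14 were tested, and 2 rose and 4 fell. The activin-binding protein gene Fstl3 rose (log2 fold change 1.01, edgeR adjusted p = 0.0294). Sostdc1, a kidney-expressed antagonist, was at 2.00 to 2.72 CPM in CTL and at 0.0321 to 0.178 CPM with TGF-β1, around the level of 3 reads, so the size of its fall is imprecise (log2 fold change -4.72, edgeR adjusted p = 0.0052). Chrdl1 (log2 fold change -1.81, edgeR adjusted p = 0.0130), Fst, the follistatin gene (-0.74, adjusted p = 0.0070), and Twsg1 (-0.37, adjusted p = 0.0294) also fell. With the block 3 were called higher and 6 lower, and the median without it was -0.24.

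Other genes known to respond to BMP signals, taken without the Id genes, were mostly not called: of 15, 12 were tested, and 2 rose and 0 fell. The 2 were Runx2 (log2 fold change 0.73, edgeR adjusted p = 0.0122) and Smad7 (0.55, adjusted p = 0.0140), an inhibitory Smad that TGF-β also induces. Smad6, the inhibitory Smad more closely tied to BMP signalling and named after its values were seen, was at 31.3 to 43.5 CPM in CTL and 23.6 to 27.4 CPM with TGF-β1 (log2 fold change -0.51, edgeR adjusted p = 0.0716, and 0.0255 with the block). With the block 5 of the 12 were called lower, among them Smad6, Smad9, Bambi and Atoh8, and 2 higher. Of these, Smad9 is also counted among the receptor and Smad genes, and Atoh8 among the tissue-restricted bHLH factors. Smad6 and Smad7 thus differed in sign within each pair, with log2 ratios of -0.23, -0.88 and -0.37 for Smad6 and of 0.66, 0.48 and 0.51 for Smad7. Msx1 (log2 fold change 0.29), Msx2 (0.24) and Dlx3 (1.75, at most 21 reads in any library), also on this list, lay in the other direction. They passed with neither design. The median over the 12 without the block was -0.092.

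**Figure D5:**
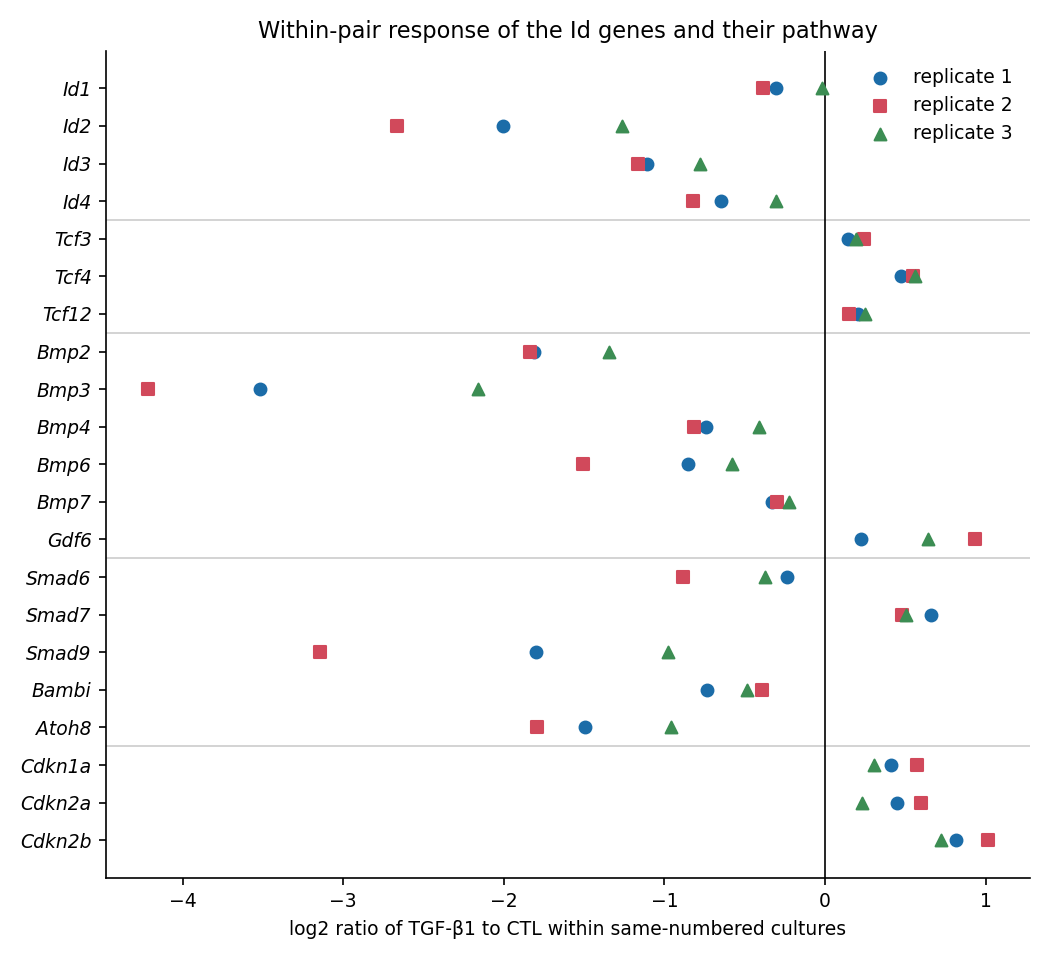
Log2 ratio of TGF-β1 to CTL within each same-numbered pair of cultures, by replicate number. Rows are the Id genes, the E protein genes, the tested BMP ligand genes, and selected BMP-responsive and CDK inhibitor genes. Genes not drawn include Runx2 (log2 fold change 0.73), Msx1 (0.29), Msx2 (0.24), Dlx3 (1.75), Cdkn1b (0.036) and Cdkn1c (0.44). All 4 Id genes lie left of 0 in all 3 pairs, with Id2 between -1.26 and -2.66, and the E protein genes lie right of 0, at 0.15 to 0.56.

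Of 12 transcripts that TGF-β is known to raise, 7 rose and 0 fell, with a median log2 fold change of 0.56. Over all genes tested 5.00% were called higher and 6.69% lower. Among the 7 was Fn1, the fibronectin gene (log2 fold change 1.04, edgeR adjusted p = 0.0038). Smad7, which is also on the list of BMP-responsive genes, was another. The Smad inhibitor genes Pmepa1 (log2 fold change 0.87, edgeR adjusted p = 0.0105) and Skil (0.76, adjusted p = 0.0038) rose too. With the block 10 were called higher and 1 lower. Of the 4 genes for factors known to act at Id promoters, Smad3, Atf3, Egr1 and Myc, 0 passed the test without the block. Smad3 was at 364 ± 45.6 CPM in CTL and 265 ± 33.7 CPM with TGF-β1 (log2 fold change -0.46, edgeR adjusted p = 0.0698, and 0.00017 with the block). Atf3 was at 24.0 ± 8.57 and 16.7 ± 5.69 CPM (log2 fold change -0.52, edgeR adjusted p = 0.385, and 0.00067 with the block). Egr1 and Myc had log2 fold changes of -0.093 and -0.15 (edgeR adjusted p = 0.450 and 0.395). The median of the 4 was -0.30.

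Genes that E proteins are known to activate and Id proteins to hold back include the CDK inhibitors. Of the 7 genes on this list, Cdkn1a, Cdkn1b, Cdkn1c, Cdkn2a, Cdkn2b, Cdh1 and Thbs1, 2 rose and 0 fell, with a median of 0.42. Cdkn2b, the gene for p15INK4b, rose from 112 ± 9.91 to 203 ± 10.7 CPM (log2 fold change 0.85, edgeR adjusted p = 0.0038), and it is also on the list of TGF-β response genes. Cdkn2a, the locus of p16INK4a and p19ARF, rose from 99.9 ± 13.5 to 133 ± 1.64 CPM, with both transcripts counted as 1 gene (log2 fold change 0.42, edgeR adjusted p = 0.0441). Cdkn1a, the p21 gene, was at 899, 1046 and 911 CPM in CTL and 1196, 1559 and 1123 CPM with TGF-β1 (log2 fold change 0.44, edgeR adjusted p = 0.0966, and 0.0014 with the block). The block also added Cdkn1c as higher (log2 fold change 0.43, edgeR adjusted p = 0.0439) and Cdh1, which E proteins repress, as lower (-0.18, adjusted p = 0.0194). Cdkn1b (0.036) and the thrombospondin gene Thbs1 (-0.037), which Id1 is known to repress, did not pass with either design.

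Id2 protein also binds the pocket proteins. Of Rb1, Rbl1 and Rbl2, 0 of 3 passed the test without the block, with log2 fold changes of 0.064, -0.37 and -0.21, and Rbl1 was called lower with the block (edgeR adjusted p = 0.0116). Among 8 genes that act on the stability of Id proteins, 1 rose, the ubiquitin ligase gene Smurf2, from 146 ± 2.4 to 177 ± 2.05 CPM (log2 fold change 0.28, edgeR adjusted p = 0.0120). Usp1, the deubiquitinase that stabilises Id proteins, was at 23.2 ± 1.27 CPM in CTL and 19.0 ± 2.10 CPM with TGF-β1 (log2 fold change -0.29, edgeR adjusted p = 0.109, and 0.0396 with the block). Fzr1, Vhl, Cul2, Dyrk1a, Dyrk1b and Cops5 had log2 fold changes between -0.054 and 0.10 and passed with neither design. The medians were -0.21 for the pocket protein genes and 0.048 for the stability genes.

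The list counts were also taken without both replicate 2 cultures, where 6.79% of all genes tested were called higher and 8.09% lower. The E protein genes then had 2 of 3 called higher, Tcf4 and Tcf12, the BMP ligand genes 3 of 6 lower, and the receptor and Smad genes 3 higher and 1 lower of 14. The antagonist genes had 2 higher and 4 lower, the other BMP-responsive genes 2 higher and 2 lower, and the TGF-β response genes 8 higher. The tissue-restricted bHLH genes had 2 higher and 2 lower, the Hes, Hey and Dec genes 3 higher and 0 lower, and the CDK inhibitor list 3 higher. Of the factors at Id promoters 1, Smad3, was called lower, the pocket protein genes had 0 calls and the stability genes 1 higher. Without both replicate 1 cultures edgeR called 0 of all genes, so no list call held in that fit.

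The labelled cell type was checked against markers of renal cells. The tubule genes Cdh16, Pax8, Pax2, Epcam, Krt8, Krt18 and Cdh1 summed to 1060 to 2637 CPM in CTL and 916 to 2185 CPM with TGF-β1, lowest in replicate 2, and 2 of 7 fell, Cdh16 (log2 fold change -1.50, edgeR adjusted p = 0.0092) and Pax8 (-0.77, adjusted p = 0.0044). Of the proximal tubule genes, Lrp2 fell (-0.93, adjusted p = 0.0165), Cubn did not pass, and Slc34a1, Slc5a2 and Slc22a6 held at most 10 reads in any library. The loop and distal genes Umod, Slc12a1, Slc12a3 and Calb1 summed to 1.28 to 3.51 CPM in CTL, and of the collecting duct genes Aqp2, Aqp3, Scnn1g, Hsd11b2 and Atp6v1b1, Hsd11b2 was called without the block, as higher (log2 fold change 1.65, edgeR adjusted p = 0.0415). The podocyte gene Nphs1 held at most 6 reads, while Wt1 and Podxl were at 49.4 to 65.3 and 25.5 to 34.6 CPM on group average and 0 of 2 were called. The fibroblast genes Pdgfra, Pdgfrb, Dcn, Lum, Thy1 and Col1a1 summed to 585 to 1706 CPM in CTL and 634 to 1958 CPM with TGF-β1, highest in replicate 2, mostly as Col1a1, and 0 of 5 tested were called. The endothelial genes Pecam1, Cdh5, Kdr, Tek, Tie1 and Emcn summed to at most 2.68 CPM and the leukocyte genes Ptprc, Itgam, Cd68, Lyz2, C1qa and Cd3e to at most 18.9 CPM, with 0 called in either list. With the block 5 of 7 tubule genes and 2 of 2 podocyte genes tested were called lower, and of the fibroblast genes 2, Pdgfrb and Dcn, were called lower and 1, Col1a1, higher, beside 19.1% lower and 15.1% higher over all genes. Umod (edgeR adjusted p = 0.0446) and Scnn1g (adjusted p = 0.0085) were also called lower with the block.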

How the data were processed

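The authors sequenced poly(A) RNA of 6 RTEC cultures as single-end 50-bp reads, trimmed them with Trim Galore, aligned them to GRCm38 with STAR 2.4.1d and counted reads per gene with HTSeq 0.6.1. The deposited counts are whole and not normalized, and 25.4% to 25.9% of entries were on no named gene and were left out. GENCODE M21 matched 46005 of the 46517 gene identifiers. The main test was edgeR 4.0.16 in R 4.3.3 (filterByExpr, TMM, robust quasi-likelihood fit and F test). P-values were adjusted by Benjamini-Hochberg across the 15862 genes that passed the filter, at a threshold of 0.05. CPM were TMM-scaled, with a prior count of 2 for log2 CPM. The level of 3 reads used as a floor covers counting error only, as reads had no molecular identifiers. The labels do not say that replicates came from separate animals, so p-values without the block measure the spread between these cultures. Those with the block measure the spread left once differences between replicate numbers are removed, with the pairs inferred from these same data. Alternatives were DESeq2 1.42.0, RLE, library size only, 2 other count filters, the replicate block, limma-voom (limma 3.58.1), and leaving out single cultures or both of 1 number. Named genes were all 4 Id genes, all members of lists of up to 8, up to 4 called rises and 4 called falls of longer lists, and the 3 genes most correlated with each Id gene. Bmp4, Bmp7, Gdf6, Smad6, Smad9, Bambi, Msx1, Msx2, Dlx3 and Twist1 were named after their values were seen. A few list members that the rule names are not reported here. Members and lists were chosen with earlier results of these data known. Promoter windows were RefSeq's. Figures were drawn with matplotlib 3.10.9.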

Additional observations from a re-analysis of the deposited data

How the results depend on the processing

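All 4 Id genes kept a negative log2 fold change under all 16 alternatives, from -0.35 to -0.16 for Id1, -2.35 to -1.63 for Id2, -1.59 to -0.45 for Id3 and -1.03 to -0.14 for Id4. With the replicate block Id1 (-0.24), Id3 (-1.03) and Id4 (-0.62) came to pass the threshold and Id2 remained past it. Leaving out cultures gave -2.35 to -1.63 for Id2, which lost its call in the 3 fits without a replicate 1 culture, and -1.59 to -0.45 for Id3, which gained its call without both replicate 2 cultures. Without the block, 793 genes were called higher and 1061 lower. DESeq2 called 1201 and 1521, library size only 508 and 1467, and the replicate block 2388 and 3037, and fits with cultures left out called 0 to 1084 and 0 to 1290, with 0 in both directions without both replicate 1 cultures. Of the list counts under the alternatives, 297 stayed within 1.5 times and 119 did not. The log2 ratio of Id1 to Id3 after TGF-β1, 0.21 per kb of exon, was -0.42 on CPM and -0.92 per kb of coding sequence, where the length unit sets the value, and -0.066 without TGF-β1 replicate 3, within a range of -0.066 to 0.61 when cultures were left out. With 3 cultures a group the unpaired exact permutation test could not pass 0.05, and genes below about 3 reads were not measurable.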
